A study of Mus musculus with 6 samples.

Results

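Bile acids are made from cholesterol in hepatocytes, and 10 genes of their synthesis, sensing and transport were followed in primary hepatocytes of alcohol-fed mice. They were the synthetic enzymes Cyp7a1, Cyp8b1, Cyp27a1 and Cyp7b1, the conjugating enzyme Baat, the nuclear receptors Nr1h4 and Nr0b2, the uptake carriers Slc10a1 and Slco1b2, and the export pump Abcb11. The genes were chosen by name from the 25718 genes of the deposited table, and all 10 were found, each in 1 row. All 10 also passed the filter on low counts, as did 15957 genes in total.

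Wild type (WT) and heterozygous S100a16 knockout (S100a16KO+/-) hepatocytes were compared, with 3 RNA-seq libraries of each genotype. The knockout lacks exons 2 to 3 of S100a16 after germline deletion by EIIa-Cre, an early embryonic Cre driver, and heterozygotes were used because loss of both alleles is lethal. In the sample labels the heterozygotes appear as S100A16 knockdown. Male mice of 8 to 10 weeks on a background of more than 98% C57BL/6 received control diet for 5 days and a 5% ethanol diet for 10 days, and then 5 g/kg ethanol by 1 gavage, with collection 9 h later, in the feeding scheme the study describes. Both genotypes were alcohol-fed, and untreated mice were not analysed here. Hepatocytes were freed by collagenase perfusion and cleaned on Percoll. The labels do not tie a library to an animal, so the p-values measure the spread between these libraries, which may be technical in part. The targeted gene S100a16 stood at 14.7, 15.0 and 16.2 CPM (estimated counts scaled to a common library size by TMM) in WT libraries 1, 2 and 3, and at 6.25, 6.07 and 5.08 CPM in S100a16KO+/- libraries 1, 2 and 3. It fell to 38.0% of its WT mean (log2 fold change -1.40, SE 0.11, adjusted p = 4.14e-07 by edgeR's quasi-likelihood test).

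In the classical pathway, Cyp7a1 adds a hydroxyl group to cholesterol in the rate-limiting step, and Cyp8b1 directs the product towards cholic acid. The alternative pathway starts with Cyp27a1 and continues with Cyp7b1, and Baat joins the finished bile acids to taurine or glycine. Bile acids activate the receptor FXR, encoded by Nr1h4, which induces Nr0b2 (SHP), a repressor of Cyp7a1, and Abcb11, the pump that moves bile salts into the canaliculus. Slc10a1 (NTCP) and Slco1b2 return bile acids from the blood to the hepatocyte.

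Promoters of 3 genes that were lower in S100a16KO+/- hepatocytes (Nr0b2, Nr1h4 and Abcb11) and of 1 enzyme that was not called (Cyp8b1) are shown, to place the measured genes on the genome and because members of this circuit are known targets of nuclear receptors. Each line gives the 250 bases before the gene's start in RefSeq (GRCm38.p6), 5′ to 3′ on the gene's strand. Capitals mark the core half-site of nuclear receptors, AGGTCA, its variant with the letters GGGTCA, its variant with the letters AGTTCA, or a reverse complement of these. The windows were chr4:133553126-133553375 (plus strand) for Nr0b2, chr10:89506659-89506908 (minus) for Nr1h4, chr2:69342617-69342866 (minus) for Abcb11 and chr9:121916306-121916555 (minus) for Cyp8b1.
Nr0b2 promoter: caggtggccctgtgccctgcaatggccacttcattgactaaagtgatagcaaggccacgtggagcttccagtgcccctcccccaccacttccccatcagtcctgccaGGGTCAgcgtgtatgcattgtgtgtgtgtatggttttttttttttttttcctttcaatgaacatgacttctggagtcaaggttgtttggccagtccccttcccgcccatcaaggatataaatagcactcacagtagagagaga
Nr1h4 promoter: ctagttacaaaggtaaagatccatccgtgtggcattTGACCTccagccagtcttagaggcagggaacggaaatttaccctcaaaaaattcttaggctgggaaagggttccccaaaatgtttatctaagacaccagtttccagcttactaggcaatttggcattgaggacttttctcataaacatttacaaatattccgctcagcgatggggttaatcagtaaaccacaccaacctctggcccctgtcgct
Abcb11 promoter: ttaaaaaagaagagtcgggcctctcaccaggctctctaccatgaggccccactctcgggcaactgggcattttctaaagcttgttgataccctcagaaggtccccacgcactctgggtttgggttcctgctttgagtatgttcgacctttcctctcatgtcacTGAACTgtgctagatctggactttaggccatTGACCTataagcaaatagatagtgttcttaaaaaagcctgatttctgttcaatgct
Cyp8b1 promoter: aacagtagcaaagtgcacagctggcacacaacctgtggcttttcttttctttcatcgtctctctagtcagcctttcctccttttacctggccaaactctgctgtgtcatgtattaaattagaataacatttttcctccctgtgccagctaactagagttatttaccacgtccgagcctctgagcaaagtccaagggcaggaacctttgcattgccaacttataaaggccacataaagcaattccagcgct
The Nr0b2 window held 1 half-site, GGGTCA, 143 to 138 bases before the start, and the E-box CACGTG at 195 to 190 bases. The Nr1h4 window held 1, AGGTCA on the opposite strand, 214 to 209 bases before the start. The Abcb11 window held 2, both on the opposite strand, AGTTCA at 87 to 82 bases and AGGTCA at 56 to 51 bases, and the Cyp8b1 window held 0. The other uncalled members with an entry did hold half-sites, with 2 for Slco1b2 (AGTTCA and, apart from it, AGGTCA), 1 for Cyp27a1 (AGTTCA) and 1 in 1 of the windows of Slc10a1 (AGGTCA). Over all 32851 RefSeq promoters of the same length, AGGTCA or its complement occurred in 14.0%, GGGTCA in 11.6%, AGTTCA in 11.8%, and any of the 3 in 32.9%, while the E-box occurred in 6.02%. Such matches are common, and none of them shows binding. Entries were found for 7 of the 10 members, with no matches overlapping each other; the others, Cyp7a1, Cyp7b1 and Baat, are named only.

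Of the 10 bile acid genes, 5 were lower in S100a16KO+/- than in WT hepatocytes, 0 were higher and 5 were not called, at an adjusted p under 0.05. The fall was largest for the FXR target Nr0b2, followed by Cyp7a1 and Nr1h4, and smaller for Abcb11 and Baat. Both uptake carriers, Cyp8b1 and both enzymes of the alternative pathway were not called. Among all 15957 tested genes 22.8% were called, 11.2% lower and 11.6% higher, so that 5 of 10 is above the share of all genes. Members are abundant genes, however, and 48.4% of the 2693 genes at least as abundant as the lowest member (33.2 CPM on average) were called, which is close to the 5 of 10 here. The count of members called in either direction is therefore near its background, and the results rest on the single genes. By direction, 721 of the 2693 genes were lower and 583 were higher, while the 5 called members were all lower. The libraries of the genotypes did not overlap for 6 members, against 37.9% of all tested genes and 59.9% of those 2693 genes. None of the members reached the study's own rule, an unadjusted p under 0.05 with a fold change of at least 2. Applied here to the edgeR fit and not to the study's DESeq2 fit, that rule was met by 4.52% of all tested genes. The median log2 fold change was -0.15 over the members, 0.01 over all tested genes and -0.03 over the 2693 genes.

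**Figure D1:**
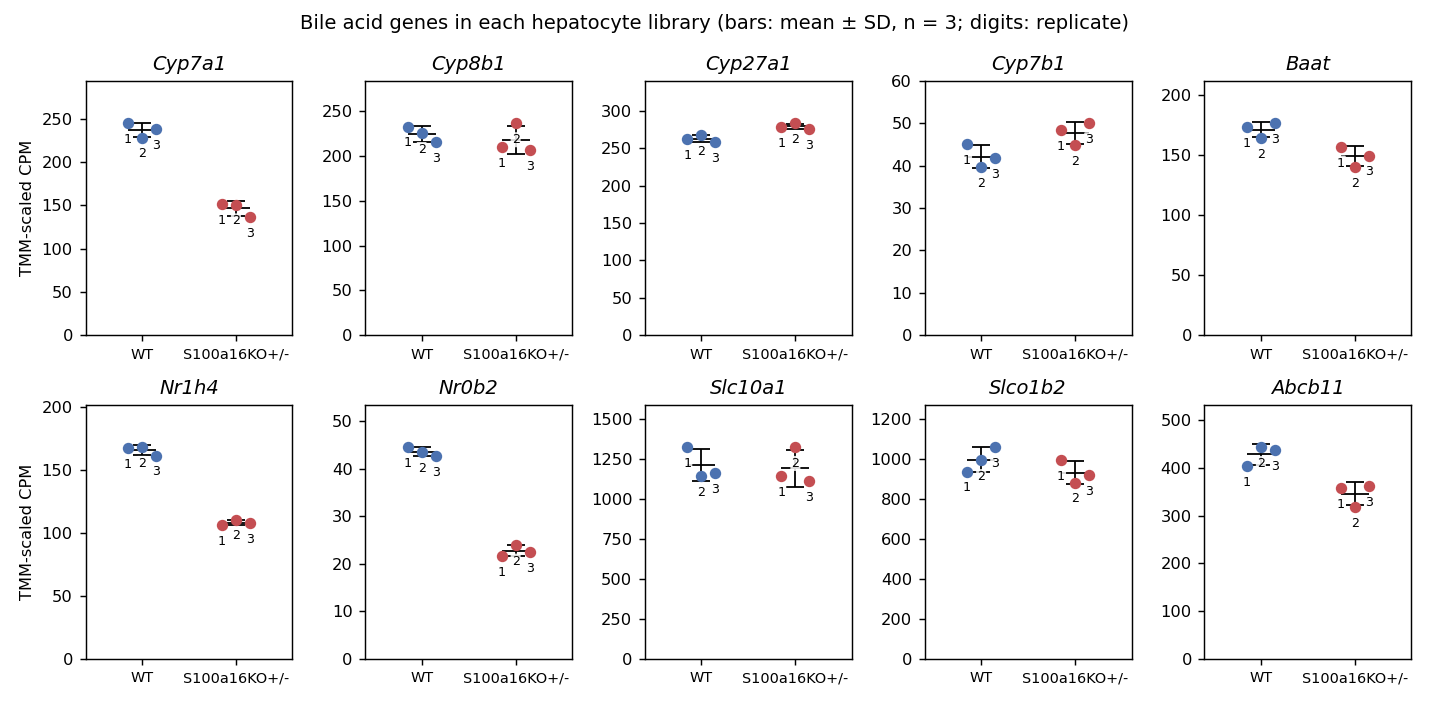
TMM-scaled CPM (vertical axes, linear, from 0) of the 10 bile acid genes in each WT (blue) and S100a16KO+/- (red) library, numbered by replicate, with bars for the mean ± SD of 3 libraries. The genotypes separate widely for Cyp7a1 (228.5 to 244.9 against 136.8 to 152.0 CPM), Nr1h4 and Nr0b2, narrowly for Abcb11, Baat and Cyp27a1, and overlap for Slc10a1, Slco1b2, Cyp8b1 and Cyp7b1.

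Cyp7a1 (chr4:6265612-6275633, minus strand, coordinates of the table on mm10) was measured at 244.9, 228.5 and 237.9 CPM in the WT libraries. In the S100a16KO+/- libraries it was at 152.0, 151.0 and 136.8 CPM. All 3 S100a16KO+/- libraries lay below every WT library, and the gap between the genotypes was wider than the range within either. The mean fell from 237.1 ± 8.20 to 146.6 ± 8.50 CPM (SD, n = 3), to 61.8% of WT, with a log2 fold change of -0.69 (95% interval -0.81 to -0.57, adjusted p = 6.12e-07 by edgeR). As these are bulk libraries, fewer cells expressing the gene and less RNA per cell cannot be told apart. Among the 2693 genes at least as abundant as the lowest member, 75 (2.79%) had a log2 fold change as low as or lower than that of Cyp7a1.

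Cyp8b1, the sterol 12-alpha-hydroxylase of the classical pathway (chr9:121914356-121916305, minus), was not called. It stood at 232.9, 225.6 and 215.4 CPM in WT and at 210.3, 236.5 and 207.1 CPM in S100a16KO+/- libraries. The genotypes overlapped, and the library with the highest value of all was S100a16KO+/- library 2. The log2 fold change was -0.04, with a 95% interval from -0.17 to 0.08, which leaves room for a small change in either direction but does not reach the fall of Cyp7a1.

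Both classical-pathway enzymes were also compared within each library, as the ratio of Cyp8b1 to Cyp7a1. Per unit of transcript length (FPKM), Cyp8b1 was 2.04, 2.11 and 1.94 times as abundant as Cyp7a1 in the WT libraries. In the S100a16KO+/- libraries the ratio was 2.96, 3.35 and 3.24. All 3 S100a16KO+/- ratios were above the WT ratios. The geometric means of 2.03 and 3.18 differed 1.57-fold (log2 difference 0.65), and the two-sided exact permutation test over the 20 assignments of 6 libraries gave p = 0.1, the smallest value that 3 against 3 libraries allow. A ratio within a library does not depend on how libraries are scaled against each other.

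**Figure D2:**
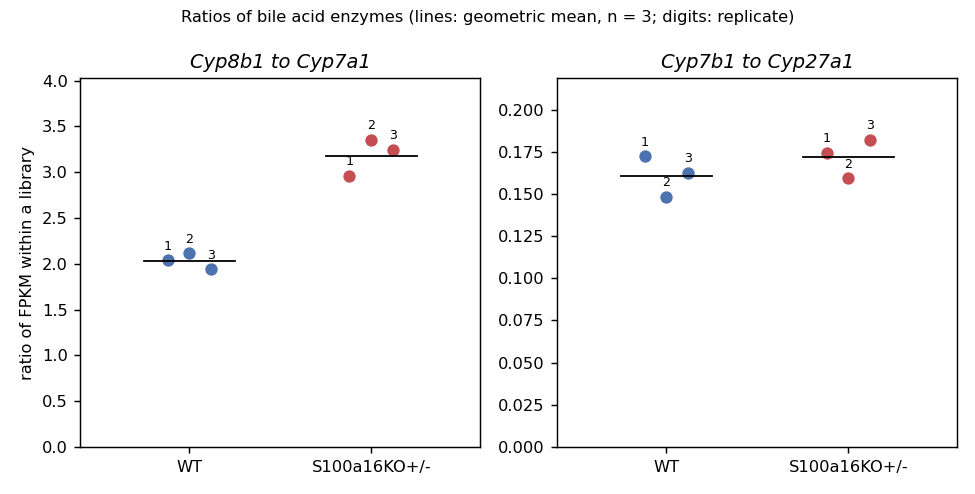
Ratio of FPKM values within each library (vertical axes, linear, from 0) for Cyp8b1 to Cyp7a1 (left) and Cyp7b1 to Cyp27a1 (right), with WT in blue, S100a16KO+/- in red and lines for the geometric mean of 3 libraries. The left-hand ratios lie between 1.94 and 2.11 in WT and between 2.96 and 3.35 in S100a16KO+/-, and the right-hand ratios overlap.

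Neither enzyme of the alternative pathway was lower in S100a16KO+/- hepatocytes. Cyp27a1, a mitochondrial sterol 27-hydroxylase (chr1:74713574-74737892, plus), was measured at 262.2, 267.7 and 258.3 CPM in WT and at 278.7, 283.2 and 275.4 CPM in S100a16KO+/- libraries. The groups did not overlap, with every S100a16KO+/- library above every WT library, but the difference was small and missed the threshold (log2 fold change 0.09, 95% interval -0.01 to 0.19, adjusted p = 0.217). Cyp7b1, the oxysterol 7-alpha-hydroxylase (chr3:18071950-18243338, minus), stood at 45.0, 39.6 and 41.8 CPM in WT and at 48.5, 45.0 and 50.0 CPM in S100a16KO+/- libraries. WT library 1 and S100a16KO+/- library 2 were almost equal, and the log2 fold change of 0.18 (95% interval 0.04 to 0.32) had an unadjusted p of 0.0149 and an adjusted p of 0.0609 from edgeR. The call depended on the libraries and the filter. The log2 fold change was 0.23 without WT library 1 (adjusted p = 0.0384), 0.22 without S100a16KO+/- library 2 (adjusted p = 0.0280) and 0.27 without both (adjusted p = 0.00504), the last an alternative chosen after the data were seen. With all 6 libraries it was also called with a minimum mean of 1 CPM (0.19, adjusted p = 0.0344) and with counts divided by 4 (0.19, adjusted p = 0.0403).

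The ratio of Cyp7b1 to Cyp27a1 on the FPKM scale was 0.172, 0.149 and 0.162 in WT and 0.174, 0.159 and 0.182 in S100a16KO+/- libraries. These ranges overlapped, and the log2 difference was 0.09 (exact permutation p = 0.4). The difference was thus within the spread of the libraries.

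Baat, the bile acid-CoA:amino acid N-acyltransferase (chr4:49489422-49506557, minus), showed the smallest of the called changes. Its levels were 172.8, 163.8 and 176.0 CPM in WT and 156.6, 140.0 and 149.2 CPM in S100a16KO+/- libraries. The groups did not overlap, with WT library 2 only slightly above S100a16KO+/- library 1. The mean fell to 87.0% of WT (log2 fold change -0.20, 95% interval -0.32 to -0.08, adjusted p = 0.0193). The call was lost without WT library 1 (log2 fold change -0.19, adjusted p = 0.0554), WT library 3 (-0.18, adjusted p = 0.0892), S100a16KO+/- library 2 (-0.16, adjusted p = 0.0547) or S100a16KO+/- library 3 (-0.20, adjusted p = 0.0531), all by edgeR. It was also lost in limma fits of log2 FPKM values, with adjusted p from 0.126 to 0.270.

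Nr1h4, which encodes the bile acid receptor FXR (chr10:89454234-89506658, minus), was clearly lower in S100a16KO+/- hepatocytes. WT libraries held 168.0, 168.5 and 161.7 CPM, and S100a16KO+/- libraries held 106.6, 110.8 and 107.9 CPM. The gap between the genotypes was several times the range of the libraries within either. The mean fell from 166.1 ± 3.77 to 108.4 ± 2.16 CPM (SD, n = 3), to 65.3% of WT (log2 fold change -0.62, 95% interval -0.72 to -0.51, adjusted p = 6.65e-07). Of the genes at least as abundant as the lowest member, 103 (3.83%) had a log2 fold change as low or lower.

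Nr0b2, an orphan receptor without a DNA-binding domain that represses other nuclear receptors (chr4:133553376-133556536, plus), had the largest change of the 10. Its levels were 44.6, 43.6 and 42.7 CPM in WT and 21.7, 24.0 and 22.5 CPM in S100a16KO+/- libraries. The groups were far apart, and the S100a16KO+/- mean of 22.7 ± 1.18 CPM was 52.1% of the WT mean of 43.6 ± 0.968 CPM (SD, n = 3). The log2 fold change was -0.94 (95% interval -1.08 to -0.80, adjusted p = 9.90e-08 by edgeR). Of the genes at least as abundant as Nr0b2, the lowest member, 42 (1.56%) were as low or lower. The repressor Nr0b2, its inducer Nr1h4 and the repressed enzyme Cyp7a1 were all lower in the same 3 libraries.

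Abcb11, the bile salt export pump (chr2:69238282-69342614, minus), was moderately lower. WT libraries held 403.3, 443.6 and 437.6 CPM, and S100a16KO+/- libraries held 358.0, 318.5 and 361.5 CPM. All WT values were above the S100a16KO+/- values, and the lowest of each genotype were WT library 1 and S100a16KO+/- library 2. The mean fell from 428.1 ± 21.8 to 346.0 ± 23.9 CPM, to 80.8% of WT (log2 fold change -0.31, 95% interval -0.43 to -0.18, adjusted p = 0.00163). The antisense genes Gm13613 and Gm13614 overlap its exons, but had 0 to 11 and 0 to 5 counts per library against 20470 to 31223 counts for Abcb11. The call was lost in limma fits of log2 FPKM values (adjusted p from 0.0738 to 0.208).

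The uptake carriers were the most abundant members and were not called. Slc10a1, the sodium-dependent bile acid carrier (chr12:80953183-80968705, minus), stood at 1324, 1143 and 1164 CPM in WT and at 1143, 1324 and 1109 CPM in S100a16KO+/- libraries. Its highest values were in WT library 1 and S100a16KO+/- library 2, at 1324 CPM in both, and the groups overlapped over nearly their whole range. The log2 fold change was -0.02 (95% interval -0.18 to 0.14) and changed sign, to 0.047, 0.0054 and 0.027, without WT library 1, S100a16KO+/- library 1 or S100a16KO+/- library 3. Slco1b2, an organic anion carrier (chr6:141629518-141686646, plus), was measured at 938.4, 995.3 and 1061 CPM in WT and at 995.2, 883.3 and 921.1 CPM in S100a16KO+/- libraries. These groups overlapped as well, and the lowest value of each genotype was in the library where Slc10a1 was highest. Here the log2 fold change was -0.10 (95% interval -0.22 to 0.03, adjusted p = 0.261).

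WT library 1 and S100a16KO+/- library 2 stood apart from the other 4 beyond these carriers. On the second principal component, which held 12.8% of the variance, they were at -10.6 and -16.9 while the others were between 4.32 and 8.83, whereas the first component (58.9%) separated the genotypes. They also had the highest shares of mitochondrial counts, 21.1% and 20.1%, against 17.0% to 18.7% in the other libraries. Their part in the results was not tested further, but with both left out 6 members were called, the same 5 lower and Cyp7b1 higher. Total counts were between 67658095 and 71807834 per library, and 1 sequenced fragment was worth about 4 counts.

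Levels of different genes can be compared per transcript length. On the FPKM scale Slc10a1 was the highest member in WT hepatocytes at 490.3 ± 17.5, followed by Slco1b2 at 181.1 ± 17.6 (SD, n = 3). Cyp27a1 (108.0 ± 5.67) and Cyp8b1 (102.8 ± 3.48) overlapped, as did the neighbours Baat (78.6 ± 3.46), Abcb11 (74.4 ± 6.98) and Nr1h4 (64.4 ± 2.87). Cyp7a1 (50.7 ± 1.01), Nr0b2 (34.4 ± 1.07) and Cyp7b1 (17.4 ± 0.407) followed without overlap. The order was kept in S100a16KO+/- hepatocytes down to Cyp7a1 (31.5 ± 1.55), where the neighbours Cyp27a1 and Cyp8b1 as well as Abcb11 and Nr1h4 no longer overlapped. At the lower end Nr0b2 at 18.0 ± 0.502 FPKM stood beside Cyp7b1 at 19.9 ± 2.03 FPKM, and their libraries overlapped.

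The profile of Cyp7a1 over the 6 libraries was close to those of Nr0b2 (Pearson r = 0.985 on log2 CPM) and Nr1h4 (r = 0.984), at places 156 and 168 among the 9203 genes that averaged 4 CPM or more. Baat (r = 0.879) and Abcb11 (r = 0.850) were at places 1323 and 1577. Most like Cyp7a1 were Slc25a44 (r = 0.999), Cideb (r = 0.998), Acsf2 (r = 0.998), Pik3r1 (r = 0.997) and S1pr1 (r = 0.997), with log2 fold changes between -1.10 and -0.36. Cideb is known from lipid droplets and lipoprotein loading, and Pik3r1 encodes a regulatory subunit of PI3 kinase. These r values are a description over 6 points that share the 2 genotypes, so any gene that is well separated in the same direction with little spread ranks high.

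A wider list of bile acid genes, written by role, held 62 genes, of which 60 were in the table and 56 were tested. In it 8 genes were higher and 22 were lower, with a median log2 fold change of -0.10. This is 53.6% called, against 22.8% of all tested genes and 48.4% of the genes at least as abundant as the lowest member, so the count is near the share of abundant genes. Without the 10 members the counts were 8 higher, 17 lower and 21 not called among 46. By the study's own rule, again applied to the edgeR fit, 2 of the 56 changed, Ppargc1a and Cyp2b10. Gpbar1 and Fgf15 were not among the gene names of the table, so there were no values for them. Ch25h, Vdr and Sult2a1 were at or under the floor of 12 counts, the level that a count of 0 allows, in every library.

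**Figure D3:**
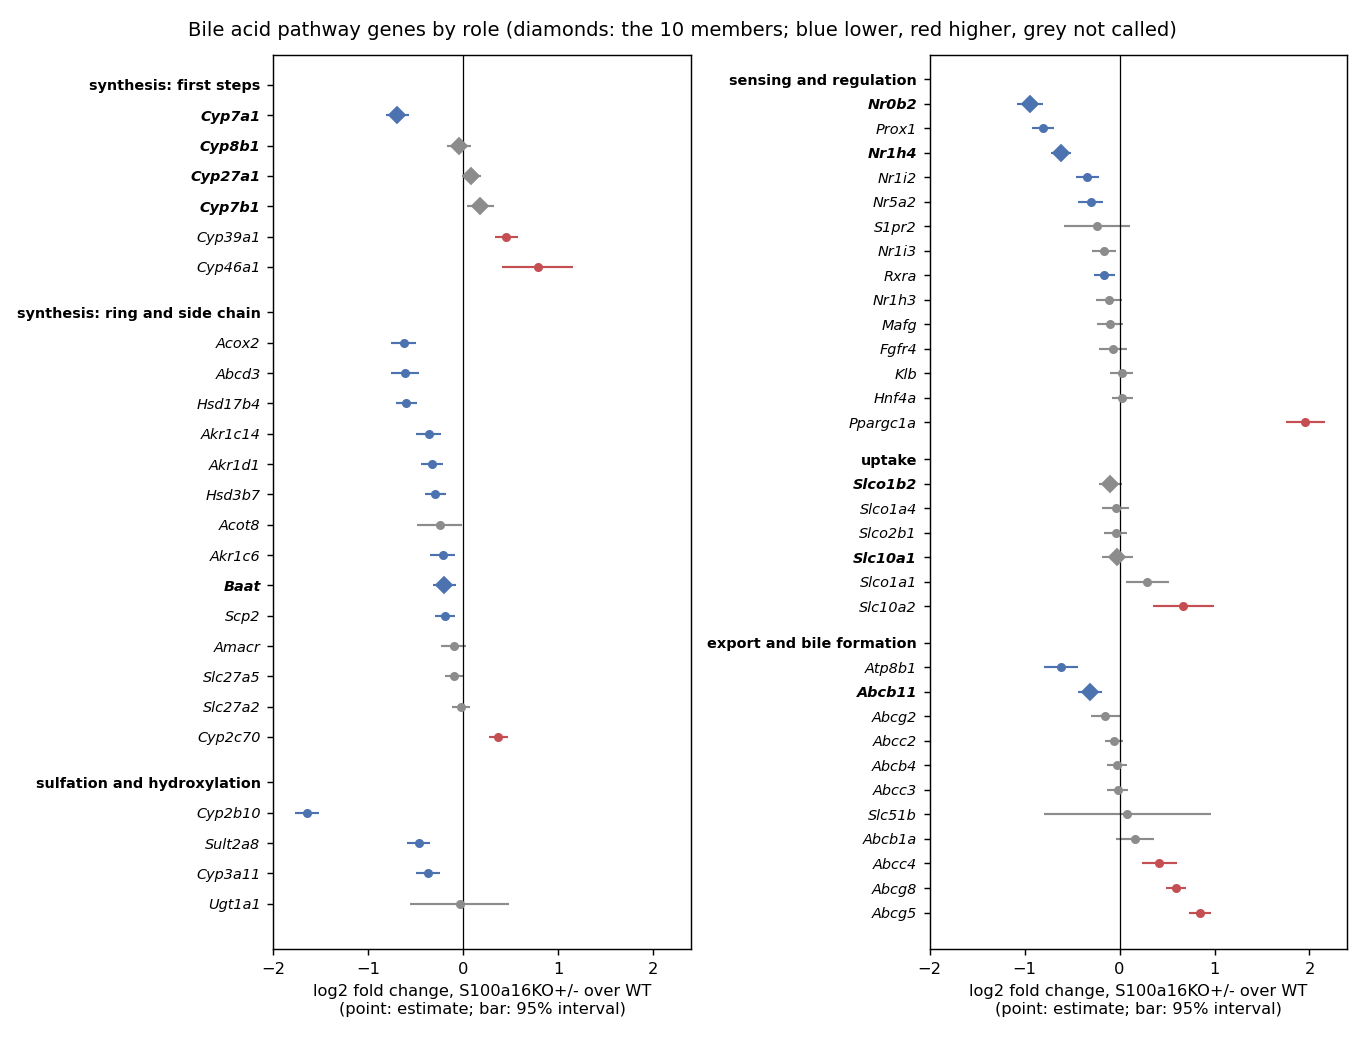
Log2 fold changes of S100a16KO+/- over WT hepatocytes (horizontal axes, bars for the 95% interval) for 55 of the 56 tested genes of the bile acid list, by role. Diamonds mark the 10 members, blue marks genes lower and red genes higher at an adjusted p under 0.05, and grey marks genes not called. Ring and side chain enzymes lie mostly below 0, with 9 of 14 lower. Lower were 11.2% of all tested genes and 721 of the 2693 genes at least as abundant as the lowest member. Among the uptake carriers only Slc10a2 is coloured, while the interval of Slco1a1 also lies above 0.

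Among the first steps of synthesis, 2 of 6 tested genes were higher and 1, Cyp7a1, was lower. This is 50% called, against 22.8% of all tested genes and 48.4% of those at least as abundant as the lowest member. Cyp39a1, which hydroxylates 24-hydroxycholesterol, rose from 103.8 ± 4.35 to 142.3 ± 5.95 CPM (log2 fold change 0.46, SE 0.056, adjusted p = 3.37e-05). Cyp46a1, the enzyme that makes 24-hydroxycholesterol, rose from 2.68 ± 0.230 to 4.61 ± 0.823 CPM (log2 fold change 0.78, SE 0.17, adjusted p = 0.00472), a low level in hepatocytes. In neither gene did the genotypes overlap.

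Among the 14 ring and side chain enzymes, 9 were lower, 1 was higher and 4 were not called. Called were thus 71.4%, against 22.8% of all tested genes and 48.4% of those at least as abundant as the lowest member. By direction, 11.2% of all tested genes were lower, and 721 of the 2693 genes at least as abundant as the lowest member. Acox2, the branched-chain acyl-CoA oxidase, fell from 225.9 ± 13.3 to 146.2 ± 9.42 CPM (log2 fold change -0.63, adjusted p = 4.07e-06). Hsd17b4, the peroxisomal bifunctional enzyme, fell from 315.7 ± 14.6 to 208.5 ± 2.93 CPM (log2 fold change -0.60, adjusted p = 9.58e-07). Abcd3, a peroxisomal importer of bile acid intermediates, fell from 350.5 ± 26.5 to 228.7 ± 18.9 CPM (log2 fold change -0.62, adjusted p = 1.62e-05). These log2 fold changes stand beside -0.69 for Cyp7a1 and -0.62 for Nr1h4. Cyp2c70, which makes the muricholic acids of rodents, rose from 411.9 ± 7.66 to 532.8 ± 7.77 CPM (log2 fold change 0.37, adjusted p = 3.17e-05). All 4 genes were separated between the genotypes.

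Of the 15 tested genes of sensing and regulation, 7 were lower, Nr0b2 and Nr1h4 among them, and 1 was higher. With 53.3% called, the group was near the 48.4% of genes at least as abundant as the lowest member. Among all tested genes the share was 22.8%. Prox1, a co-repressor of Cyp7a1, fell from 189.6 ± 9.50 to 108.2 ± 0.562 CPM (log2 fold change -0.81, adjusted p = 6.42e-08). The xenobiotic receptor Nr1i2 was moderately lower (log2 fold change -0.34, adjusted p = 0.000599). Ppargc1a, a fasting-induced coactivator, rose from 6.82 ± 0.673 to 26.5 ± 0.916 CPM (log2 fold change 1.96, SE 0.095, adjusted p = 2.44e-09), the largest rise in the list. The other 7 of the 15 genes were not called, and the median log2 fold change of the group was -0.16.

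In uptake, 16.7% were called, against 22.8% of all tested genes and 48.4% of those at least as abundant as the lowest member. Of the 6 tested carriers, 0 were lower and 1 was higher. This was Slc10a2, the apical carrier of ileum and bile ducts, at 3.68 ± 0.507 CPM in WT and 5.84 ± 0.249 CPM in S100a16KO+/- libraries (log2 fold change 0.67, adjusted p = 0.00474). In export and bile formation, 3 of 11 were higher and 2, Abcb11 and Atp8b1, were lower. With 45.45% called, this role was near the 48.4% of genes at least as abundant as the lowest member. The cholesterol transporter subunits Abcg5 (74.9 ± 1.74 to 134.6 ± 5.84 CPM, log2 fold change 0.85, adjusted p = 5.41e-08) and Abcg8 (83.1 ± 0.530 to 125.3 ± 1.41 CPM, log2 fold change 0.59, adjusted p = 9.13e-07) rose together. Abcc4, a basolateral export pump, rose as well (log2 fold change 0.42, adjusted p = 0.00265), and Atp8b1, a canalicular phospholipid flippase, fell from 26.0 ± 2.19 to 17.0 ± 0.389 CPM (log2 fold change -0.62, adjusted p = 6.78e-05). Of the 4 tested genes of sulfation and hydroxylation, 3 were lower (75% called, against the same 48.4%). They were Cyp2b10 (327.6 ± 15.1 to 104.8 ± 5.95 CPM, log2 fold change -1.64, adjusted p = 8.22e-11), the sulfotransferase Sult2a8 (log2 fold change -0.47, adjusted p = 2.55e-05) and Cyp3a11 (log2 fold change -0.37, adjusted p = 0.000270).

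Other gene groups differed between the same libraries. Their counts stand beside 11.2% lower and 11.6% higher among all tested genes. Hepatocyte markers such as Alb summed to 113601 to 125211 CPM in WT and 111461 to 122355 CPM in S100a16KO+/- libraries, with 1 of 10 higher and 1 lower. Markers of sinusoidal endothelial cells summed to 253.0 to 265.3 CPM in WT and 373.8 to 386.7 CPM in S100a16KO+/- libraries, with 7 of 8 higher and 1 lower, and stellate cell markers to 61.2 to 67.5 and 101.6 to 117.3 CPM, with 6 of 8 higher. Erythroid markers summed to 214.8 to 252.2 and 23.4 to 26.3 CPM, with 5 of 5 lower. Kupffer cell markers (146.7 to 175.8 and 173.1 to 189.7 CPM, 3 of 9 higher), cholangiocyte markers (14.4 to 18.9 and 12.2 to 14.8 CPM, 1 of 5 lower, Cftr at or under the floor) and lymphocyte and neutrophil markers (8.19 to 11.1 and 11.2 to 12.3 CPM, 0 of 7 called) were the other groups counted. Of the 7 erythroid markers written, 5 were in the deposited table. Every gene of that table had counts in some library, so no marker found in it could be at 0 in all libraries. The part of these cell types in the bile acid results was not tested.

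Groups of genes that hepatocytes express differed as well. Beside their counts, 11.2% of all tested genes were lower and 11.6% were higher. Clock genes, on which the daily rhythm of Cyp7a1 is known to depend, summed to 726.7 to 735.8 CPM in WT and 575.3 to 587.5 CPM in S100a16KO+/- libraries, with 3 of 16 higher and 10 lower. Acute phase genes summed to 10257 to 10410 and 13484 to 13903 CPM, with 9 of 12 higher and 1 lower. Pericentral genes summed to 10042 to 10389 and 7267 to 8063 CPM (3 of 11 higher, 5 lower), and periportal genes to 7892 to 8230 and 11992 to 12168 CPM (6 of 10 higher, 0 lower). The part of these groups in the changes of Cyp7a1, Nr1h4, Nr0b2, Abcb11 and Baat was not tested.

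The 3 largest changes kept their direction and their call under the 19 other settings fitted per gene, but did not meet the study's own rule, which asks for a fold change of at least 2. Over these 19 settings the log2 fold change stayed between -0.72 and -0.65 for Cyp7a1, between -0.64 and -0.60 for Nr1h4 and between -0.98 and -0.90 for Nr0b2, with adjusted p of at most 0.00105, 0.00180 and 0.000273.

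**Figure D4:**
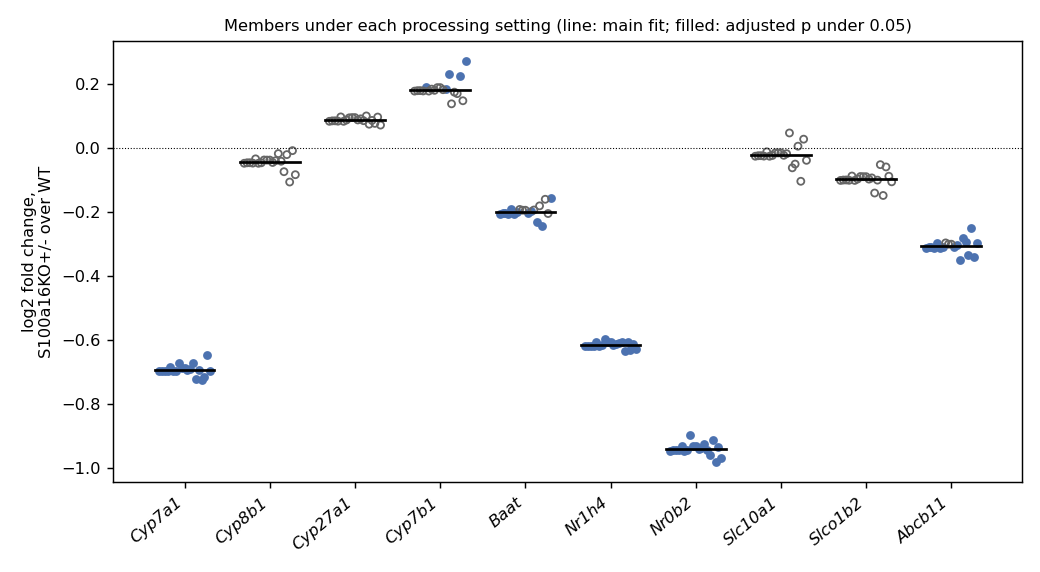
Log2 fold change of S100a16KO+/- over WT hepatocytes (vertical axis) for the 10 bile acid genes under 19 other settings each (points, filled where the adjusted p was under 0.05) beside the reported value (line). The points of Cyp7a1, Nr1h4 and Nr0b2 are all filled and lie close to their lines, those of Baat, Abcb11 and Cyp7b1 are filled in part, and those of Slc10a1 lie on both sides of 0.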

How the data were processed

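Poly(A) RNA of primary hepatocytes was sequenced in 6 libraries, 3 per genotype, mapped to genotype by their labels. The authors deposited estimated counts per gene, not scaled for library size, and FPKM values, which the authors had normalized to transcript length and to sequencing depth. The submitters' processing notes name cutadapt 1.9, HISAT2 2.0.4, UMI-tools, StringTie 1.3.4d, DESeq2, edgeR and mm10. No column of the authors' own comparisons was used. Table positions were the same as in GENCODE M21 for 23008 of 25655 identifiers found.

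Estimated counts were rounded and tested with edgeR 4.0.16 in R 4.3.3 (TMM scaling, filterByExpr, robust quasi-likelihood test of genotype, two-sided, no covariate), with Benjamini-Hochberg adjustment over 15957 genes. The study used DESeq2, run here as an alternative (1.42.0) beside limma 3.58.1. Ratios within a library were compared by exact permutation. The limit set by a count of 0 was taken as 3 fragments, which are 12 counts (0.167 to 0.177 CPM), and covers counting error only.

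Members and gene lists were chosen with earlier results of these data known. Named were the 10 members, within each role of the list up to 4 other called genes of at least 1 CPM with the largest change, S100a16, and the 5 genes most like Cyp7a1. A gene that this rule names is not reported here. Promoters were taken from RefSeq (GRCm38.p6). The fit was tested on simulated data. Alternatives were other scalings and filters, DESeq2, limma on counts and FPKM, counts divided by 4, a replicate block and leaving out libraries.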

Additional observations from a re-analysis of the deposited data

How the results depend on the processing

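Cyp7a1, Nr1h4 and Nr0b2 kept their direction and call under all 19 alternatives fitted per gene. Against 3643 changed genes, 5 members and 30 list genes, the study's rule applied to the edgeR fit gave 721, 0 and 2. The study applied its rule to DESeq2, so these are not the study's own counts. limma on log2(FPKM + 1), on log2(FPKM + 0.1) and on the latter without a filter gave 2188, 2167 and 1664 genes and 3 members each. In these fits Abcb11 (-0.30, -0.30 and -0.30, adjusted p = 0.0738, 0.0746 and 0.208) and Baat (-0.19, -0.19 and -0.19, adjusted p = 0.127, 0.126 and 0.270) lost their call. Cyp7b1 became called at 0.19 with a minimum of 1 CPM (adjusted p = 0.0344), at 0.19 with counts divided by 4 (adjusted p = 0.0403) and at 0.27 without WT library 1 and S100a16KO+/- library 2 (adjusted p = 0.00504), an alternative added after the data were seen. Leaving out 1 library at a time gave ranges of 0.14 to 0.23 for Cyp7b1, -0.24 to -0.16 for Baat, which lost its call without 4 of the 6 libraries, and -0.10 to 0.047 for Slc10a1, whose sign turned without 3 of them. It gave 2734 to 3302 changed genes, 4 to 5 members and 26 to 30 list genes. The cause of these differences was not tested. Whether replicate numbers pair the libraries is not known. Deviations from the genotype means had correlations of -0.0472, -0.0237 and 0.0518 between same-numbered libraries. Between differently numbered ones they lay from -0.0675 to 0.0841. With 3 libraries per genotype, values this small cannot decide whether the libraries are paired. With a replicate block 3082 genes, 5 members and 29 list genes were called. In it Cyp7a1 was at -0.69 (adjusted p = 1.06e-05), Nr1h4 at -0.62 (2.03e-05), Nr0b2 at -0.94 (2.35e-06), Abcb11 at -0.31 (0.00720) and Baat at -0.20 (0.0371), and no member's call changed. Both ratios of enzymes kept their direction in all 7 of their alternatives. For Cyp8b1 to Cyp7a1, leaving out 1 library could not turn it, as the genotypes did not overlap. For either ratio, FPKM in place of counts rescales all libraries nearly equally, so it could hardly turn the direction. With 3 against 3 libraries the exact permutation test of a ratio cannot go below p = 0.1.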

Other observations

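Genes that the table itself annotates with bile acid terms were counted beside the written list, with which they share genes. As background, 11.2% of all tested genes were lower and 11.6% were higher. Of the 2693 genes at least as abundant as the lowest member, 721 were lower and 583 were higher. Among the 15 tested genes of the KEGG term for primary bile acid biosynthesis, 7 were lower and 2 were higher in S100a16KO+/- hepatocytes, and their median log2 fold change was -0.19. The KEGG term for bile secretion was more balanced, with 10 lower and 9 higher among 57 and a median of -0.02. Among GO terms, bile acid metabolic process had 7 lower and 0 higher among 11, bile acid binding had 5 lower and 0 higher among 8, and bile acid transmembrane transporter activity had 1 lower (Abcb11) and 0 higher among 11. Other GO terms went both ways, with 3 lower and 3 higher among 12 for bile acid signaling pathway, 4 lower and 2 higher among 11 for bile acid biosynthetic process, and 6 lower and 2 higher among 20 for bile acid and bile salt transport. For the regulation of bile acid biosynthetic process 3 of 5 were lower, and for the regulation of bile acid secretion 2 of 6, with 0 higher in both. Over all 105 tested genes with any such term, 29 were lower and 14 were higher (41.0% called, against 22.8% of all tested genes and 48.4% of those at least as abundant as the lowest member).

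Sex-biased liver genes were counted because Cyp7b1 is known as a male-biased gene of the mouse liver and all mice were male. Among all tested genes, 11.2% were lower and 11.6% were higher. Of the male-biased genes, 1 of 10 was higher and 2 were lower, with sums of 1070 to 1120 CPM in WT and 1060 to 1168 CPM in S100a16KO+/- libraries. Cyp7b1 and Slco1a1 of the bile acid list are themselves among these 10 genes and in their sums. Of the female-biased genes, 4 of 7 were higher and 2 were lower, with sums of 963.9 to 1082 and 1108 to 1201 CPM.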
